A study of Mus musculus with 2 samples.

Results

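The WNT ligands described here are 10 genes of the deposited count table: *Wnt2*, *Wnt2b*, *Wnt4*, *Wnt5a*, *Wnt5b*, *Wnt6*, *Wnt9a*, *Wnt10a*, *Wnt10b* and *Wnt11*. They were taken by gene symbol from the 24421 rows of the table, which also holds the other 9 mouse Wnt genes. RNA-Seq was carried out on 1 library of primary chondrocytes and 1 library of primary dermal fibroblasts, both from newborn mice. The chondrocytes came from rib cartilage by collagenase digestion and had passed through no more than 2 passages, and the dermal fibroblasts came from collagenase-digested dorsal skin. The strain and the number of animals behind each library are not given in the sources used here, and no treatment or edited allele is named for either group. Each value below is a number of reads on a gene, or is computed from it, and with 1 library per cell type no difference could be set against variation between animals or cultures.

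WNT ligands are secreted glycoproteins that carry a lipid added by Porcupine and leave the cell with the carrier Wntless. They bind Frizzled receptors. With the co-receptors Lrp5 or Lrp6 they stabilize β-catenin, which then acts with Tcf and Lef factors on target genes, whereas with Ror2, Ryk or the Vangl proteins they act on cell polarity and movement without β-catenin. In cartilage, β-catenin signaling opposes the Sox9 program of early chondrocytes and later accompanies hypertrophy and bone formation, and in skin it is required for dermal fibroblast identity and hair follicle formation.

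The sequences before the transcription start are shown for 5 members. These include the 3 with more reads in chondrocytes (*Wnt11*, *Wnt10b* and *Wnt5b*). The others are the pair with the most reads among those over 2-fold higher in dermal fibroblasts (*Wnt4* and *Wnt9a*). The stretches differ in length, and that of *Wnt5b* was cut around a match, so matches in them cannot be compared between the sides. RefSeq windows of 250 bases before each annotated start (GRCm38.p6) were found for 8 of the 10 members, with 11 starts in all. None was at hand for *Wnt5a* and *Wnt10a*. Bases inside the annotated span of the gene in RefSeq or inside a GENCODE vM1 transcript of it, matched by sequence, which for *Wnt4* begins before the RefSeq start, are left out, except for *Wnt5b*, where 30 bases around a match before an internal start are shown. Capitals mark the TCF/LEF core CTTTGA and the GC box GGGCGG on either strand. The stretches lie at chr7:98834862-98835083 (*Wnt11*, plus strand, ending 28 bases before the start), chr15:98778207-98778400 (*Wnt10b*, minus strand, ending 56 bases before it), chr6:119449440-119449469 (*Wnt5b*, minus strand, ending 53 bases before that start), chr4:137277385-137277488 (*Wnt4*, plus strand, ending 146 bases before the start) and chr11:59306680-59306848 (*Wnt9a*, plus strand, ending 81 bases before it).
Wnt11: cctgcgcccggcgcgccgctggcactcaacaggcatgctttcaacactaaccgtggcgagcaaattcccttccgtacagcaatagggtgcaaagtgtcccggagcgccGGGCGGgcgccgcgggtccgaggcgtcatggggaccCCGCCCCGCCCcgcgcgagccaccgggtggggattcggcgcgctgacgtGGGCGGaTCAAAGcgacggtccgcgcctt
Wnt10b: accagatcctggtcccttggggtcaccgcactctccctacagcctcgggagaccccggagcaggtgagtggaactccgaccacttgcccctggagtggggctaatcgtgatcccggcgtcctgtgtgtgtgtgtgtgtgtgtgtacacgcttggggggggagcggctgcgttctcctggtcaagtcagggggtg
Wnt5b: gagtaagtctctCTTTGAtctgctccctgt
Wnt4: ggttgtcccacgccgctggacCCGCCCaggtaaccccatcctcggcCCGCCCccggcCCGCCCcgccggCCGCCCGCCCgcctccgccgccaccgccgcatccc
Wnt9a: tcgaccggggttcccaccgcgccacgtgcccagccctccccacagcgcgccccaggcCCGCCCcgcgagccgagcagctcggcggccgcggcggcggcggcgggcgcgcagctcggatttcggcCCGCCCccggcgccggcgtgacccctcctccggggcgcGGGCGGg

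The TCF/LEF core was found before 1 start of *Wnt11* and 1 start of *Wnt5b*, thus in 2 of the 11 member windows, and 13.8% of all 32851 windows hold it. The SOX core ACAATG and the related ACAAAG were found in 0 member windows, and 10.7% and 16.5% of all windows hold them. GC boxes, letters bound by Sp factors, were counted with overlaps and lay in 8 of the 11 windows, against 32.7% of all windows. *Wnt4* had 8 of them, *Wnt6* had 6, *Wnt9a* had 5, *Wnt11* had 4 in its outer window, *Wnt2b* had 3 and *Wnt2* had 1. The windows of *Wnt5b* had 1, 0 and 2 from the outer start inward. Those of *Wnt10b* and of the inner start of *Wnt11* had 0. The only TATA box lay before the outer start of *Wnt11*, outside the printed stretch, and 12.4% of all windows hold these letters. Other letters searched on both strands were the E-box CANNTG (8 of 11 windows, 66.2% of all), its form CACGTG (1 of 11, 6.02%), CCAAT (2 of 11, 33.8%) and the AP-1 site TGACTCA (1 of 11, 4.46%). G and C made up 85.2% of the *Wnt4* window and 84.4% of the *Wnt9a* window, at the 99.9 and 99.8 percentiles of all windows. They made up 70.8% before the outer start of *Wnt11* and 66.8% before *Wnt10b*, at the 91.7 and 85.8 percentiles. Before the outer start of *Wnt5b* they made up 75.2% (96.1 percentile). On the dermal side, *Wnt2b* had 80.8%, *Wnt6* 79.6% and *Wnt2* 63.6%, below *Wnt11* and *Wnt10b*. The inner starts had 53.2% and 55.6% (*Wnt5b*) and 56.8% (*Wnt11*). These are matches of letters only, and no binding was measured in the data used here.

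The counts summed to 18788599 reads in chondrocytes and 17563724 in dermal fibroblasts. All 10 chondrocyte markers, among them *Col2a1*, *Acan* and *Col11a2*, were over 2-fold higher in the chondrocyte library, where they summed to 99324 CPM (counts scaled to a common library total) against 25.1, and *Col2a1*, *Matn1* and *Ucma* had 0 reads in dermal fibroblasts. Of 8 dermal fibroblast markers, led by *Col1a1*, *Col3a1* and *Col1a2*, 7 were over 2-fold higher in the dermal library. Markers of other cells were present too. Of 10 keratinocyte genes, led by *Krt14*, *Krt5* and *Dsp*, 7 were over 2-fold higher in dermal fibroblasts (15.4 CPM in chondrocytes and 291 CPM in dermal fibroblasts, summed, with none at 0). Skeletal muscle genes, led by *Actc1*, *Myh3* and *Acta1*, summed to 1939 and 1507 CPM, with 4 of 10 over 2-fold higher in chondrocytes. In the same order of libraries, the summed levels were 1207 and 212 CPM for hypertrophic chondrocytes (5 of 5 higher in chondrocytes), 106 and 54.9 for osteoblasts (4 of 5), 13.8 and 47.1 for endothelium (5 of 6 higher in dermal fibroblasts), 104 and 180 for macrophages (1 of 6), 1.33 and 30.7 for melanocytes (4 of 5), 19.6 and 124 for Schwann cells (3 of 5), 107 and 323 for adipocytes (3 of 4) and 17.3 and 127 for the hair follicle dermal papilla (2 of 4, and 2 of 4 in the other direction).

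In the comparison of the cell types, the 10 ligands fell on both sides. Between the libraries, 3 members (*Wnt11*, *Wnt10b* and *Wnt5b*) were over 2-fold higher in chondrocytes, 5 (*Wnt4*, *Wnt6*, *Wnt2*, *Wnt9a* and *Wnt2b*) were over 2-fold higher in dermal fibroblasts, and *Wnt5a* and *Wnt10a* were within 2-fold. For the folds, counts were scaled by the median of ratios and counts under 3 were set to 3. Over all rows of the table, 7.61% of genes were over 2-fold higher in chondrocytes and 10.2% in dermal fibroblasts. All 10 members had at least 10 counts in 1 library, and over the 14291 genes with that many counts the shares were 11.6% and 16.5%. The whole counting interval lay past 2-fold for 2 members in chondrocytes and 3 in dermal fibroblasts, against 7.00% and 11.0% of these genes. The median log2 fold of chondrocytes over dermal fibroblasts was -1.27 over the 10 members (quartiles -1.91 and 0.68) and -0.02 over the 14291 genes (quartiles -0.59 and 0.42). The intervals quoted with folds and levels are 95% Clopper-Pearson intervals. They describe the error of counting alone, and without molecular identifiers several reads can stem from a common molecule. In libraries of whole cultures, fewer cells that express a ligand and less of its RNA per cell cannot be told apart.

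**Figure D1:**
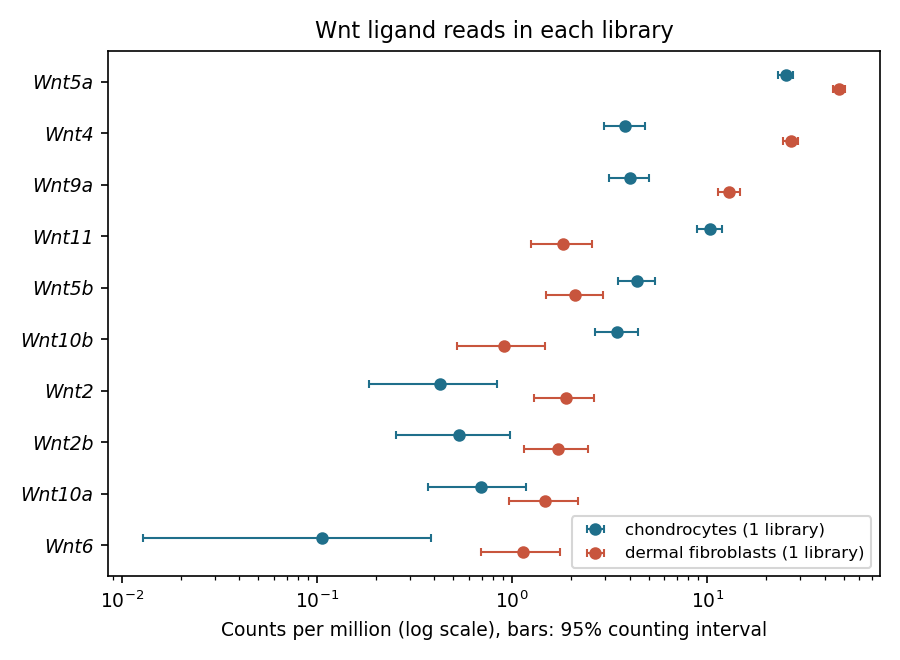
CPM of the 10 WNT ligands on a log axis, with 1 point for each library (blue, chondrocytes; red, dermal fibroblasts) and bars for the 95% counting interval. *Wnt5a* had the most reads in each library, and *Wnt11*, *Wnt5b* and *Wnt10b* are the members whose chondrocyte point lies to the right.

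*Wnt11*, a ligand of convergent extension and of kidney branching that acts largely without β-catenin, showed the largest fold toward chondrocytes among the 10 members. It lies on chromosome 7 of GRCm38 from 98835084 to 98854747 and had 193 chondrocyte counts and 32 dermal fibroblast counts, or 10.3 and 1.82 CPM. This was 6.11-fold higher in chondrocytes, with an interval from 4.18 to 9.18. In the chondrocyte library *Wnt11* held 18.4% of all Wnt reads (interval 16.1% to 20.9%), whereas in dermal fibroblasts it held 1.53% (interval 1.05% to 2.15%).

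*Wnt10b*, which favors osteoblasts over adipocytes in mesenchymal precursors, lies on chromosome 15 from 98770712 to 98778206. It had 65 chondrocyte counts and 16 dermal fibroblast counts, or 3.46 and 0.911 CPM. The 4.11-fold difference had an interval from 2.35 to 7.62, wholly above 2-fold. *Wnt5b*, which regulates proliferation and maturation of growth plate chondrocytes, lies on chromosome 6 from 119432531 to 119544824. It had 82 counts against 37, or 4.36 and 2.11 CPM, and was 2.24-fold higher in chondrocytes. Its interval ran from 1.5 to 3.40 and so reached below 2-fold. The annotated span of *Wnt5b* contains the gene *Fbxl14*, which had 484 and 473 counts, and whether the counting used the strand is not given in the sources used here. The summed levels of hypertrophic chondrocyte, osteoblast and muscle genes, given above, were also higher in chondrocytes. Of the 10 muscle genes, 6 were within 2-fold, among them *Actc1*, *Myh3* and *Acta1*. The part of these cells in the 3 folds was not tested.

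*Wnt4*, a ligand of kidney, ovary and joint development, showed the largest difference toward dermal fibroblasts among members with at least 100 counts. It lies on chromosome 4 from 137277635 to 137299501 and had 71 chondrocyte counts and 469 dermal fibroblast counts, or 3.78 and 26.7 CPM. The dermal library thus held 6.52 times the chondrocyte level (interval 5.07 to 8.50). *Wnt4* made up 22.4% of the Wnt reads of dermal fibroblasts (interval 20.6% to 24.3%) and 6.76% of those of chondrocytes (interval 5.32% to 8.45%). *Wnt9a*, known for its part in joint formation, lies on chromosome 11 from 59306849 to 59333552. With 75 counts against 227, or 3.99 and 12.9 CPM, it was 2.99-fold higher in dermal fibroblasts, with an interval from 2.29 to 3.93. Both intervals lay wholly past 2-fold, so *Wnt4* and *Wnt9a* differed between these libraries by more than counting error.

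The other 3 members over 2-fold higher in dermal fibroblasts had few reads. *Wnt2* and *Wnt2b* act together in lung specification. *Wnt2* (chromosome 6, 17985474 to 18032772) had 8 chondrocyte counts and 33 dermal fibroblast counts, or 0.426 and 1.88 CPM, a 4.07-fold difference with an interval from 1.85 to 10.2. *Wnt2b* (chromosome 3, 104944805 to 104961709) had 10 counts against 30, or 0.532 and 1.71 CPM, a 2.96-fold difference with an interval from 1.41 to 6.79. For both genes the direction exceeded counting error and the 2-fold size did not. The span of *Wnt2b* shares 4524 bp with that of *St7l*, which had 347 and 353 counts.

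*Wnt6*, a ligand of surface ectoderm that acts on the somites, had 2 chondrocyte counts and 20 dermal fibroblast counts, or 0.106 and 1.14 CPM. It lies on chromosome 1 from 74754342 to 74785322. The ratio of the scaled counts was 9.88 toward dermal fibroblasts with an interval from 2.40 to 87.2, wholly past 2-fold, and 6.58 once the chondrocyte count was set to 3. The summed level of keratinocyte genes, given above, was higher in dermal fibroblasts, as these 5 ligands were. So were the sums for melanocytes, Schwann cells, endothelium, adipocytes, macrophages and the hair follicle dermal papilla. The part of these cells in the folds was not tested.

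*Wnt5a*, a ligand of limb outgrowth and growth plate polarity that signals through Ror2, was the member with the most reads in each library. It lies on chromosome 14 from 28504543 to 28527448 and had 473 chondrocyte counts and 829 dermal fibroblast counts, or 25.2 and 47.2 CPM. It was 1.73-fold higher in dermal fibroblasts, and its interval, from 1.54 to 1.94, lay between equality and 2-fold. Its share of the Wnt reads was 45.0% in chondrocytes (interval 42.0% to 48.1%) and 39.6% in dermal fibroblasts (interval 37.5% to 41.8%), and the intervals lay close to each other without overlapping. *Wnt10a*, a ligand of teeth, hair and sweat glands, lies on chromosome 1 from 74792019 to 74804176. It had 13 counts against 26, or 0.692 and 1.48 CPM, which was 1.98-fold toward dermal fibroblasts with an interval from 0.979 to 4.19. At this depth no difference in *Wnt10a* was detectable. It was the only member whose interval included equality, and its fold passed 2 with total counts as the scaling.

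**Figure D2:**
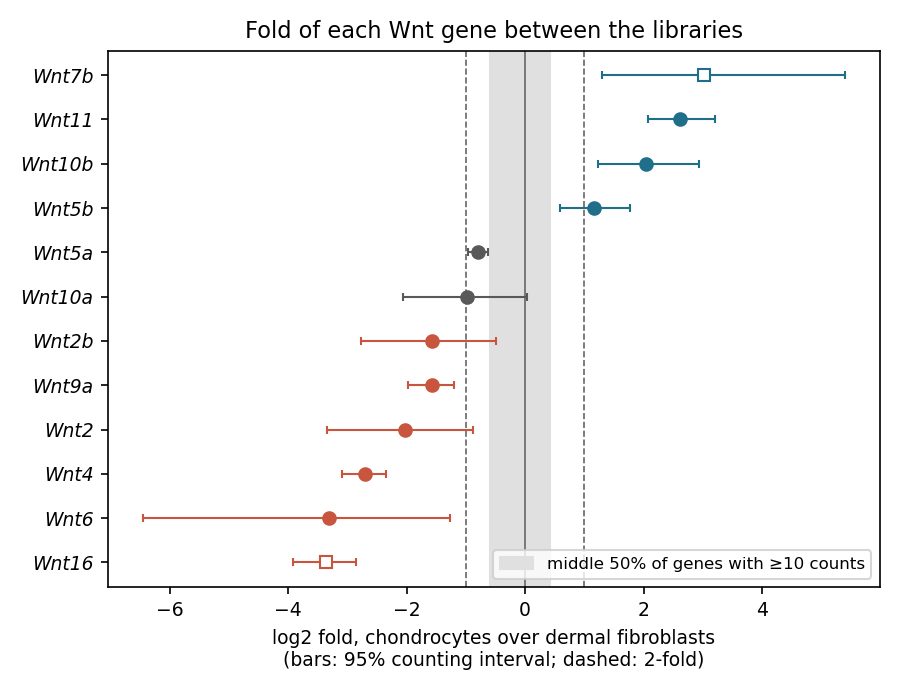
Log2 fold of scaled counts, chondrocytes over dermal fibroblasts, for the 10 ligands (circles) and for *Wnt7b* and *Wnt16* (open squares), with bars for the 95% counting interval, dashed lines at 2-fold and a grey band for the span between the quartiles of the genes with at least 10 counts. Blue marks genes over 2-fold higher in chondrocytes, red genes over 2-fold higher in dermal fibroblasts and grey the rest, with *Wnt6* drawn at the ratio of its counts before the floor of 3.

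Summed, the 10 ligands had 992 reads in chondrocytes and 1719 in dermal fibroblasts, or 52.8 and 97.9 CPM. The dermal sum was 1.71 times the chondrocyte sum (interval 1.58 to 1.85). Without *Wnt5a* the sum of the other 9 was 519 reads against 890, a 1.69-fold difference (interval 1.52 to 1.89). Of these 9, *Wnt4* had the largest difference in reads (71 against 469), and whether the sum differs without it was not tested. Over all 19 Wnt genes the sums were 1050 and 2092 reads, a 1.97-fold difference (interval 1.83 to 2.12). The chondrocyte library thus had fewer Wnt reads in all, while *Wnt11*, *Wnt10b* and *Wnt5b*, and *Wnt7b* among the other Wnt genes, had more reads there.

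Close relatives were compared inside each library, where no scaling between the libraries enters. *Wnt5b* took 82 of the 555 reads of the *Wnt5a* and *Wnt5b* pair in chondrocytes, a share of 14.8% (interval 11.9% to 18.0%). In dermal fibroblasts it took 37 of 866, a share of 4.27% (interval 3.03% to 5.84%). The odds of a *Wnt5b* read over a *Wnt5a* read were 3.88 times as high in chondrocytes, with a conditional interval from 2.56 to 5.99.

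The share also differed in the *Wnt10a* and *Wnt10b* pair. *Wnt10b* took 65 of 78 reads in chondrocytes, or 83.3% (interval 73.2% to 90.8%), and 16 of 42 in dermal fibroblasts, or 38.1% (interval 23.6% to 54.4%), an interval that holds an equal share. The odds ratio was 7.95, with an interval from 3.17 to 21.1. For *Wnt2* and *Wnt2b* no such difference was detectable at this depth. *Wnt2b* took 10 of 18 reads in chondrocytes (55.6%, interval 30.8% to 78.5%) and 30 of 63 in dermal fibroblasts (47.6%, interval 34.9% to 60.6%), with an odds ratio of 1.37 and an interval from 0.423 to 4.58.

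**Figure D3:**
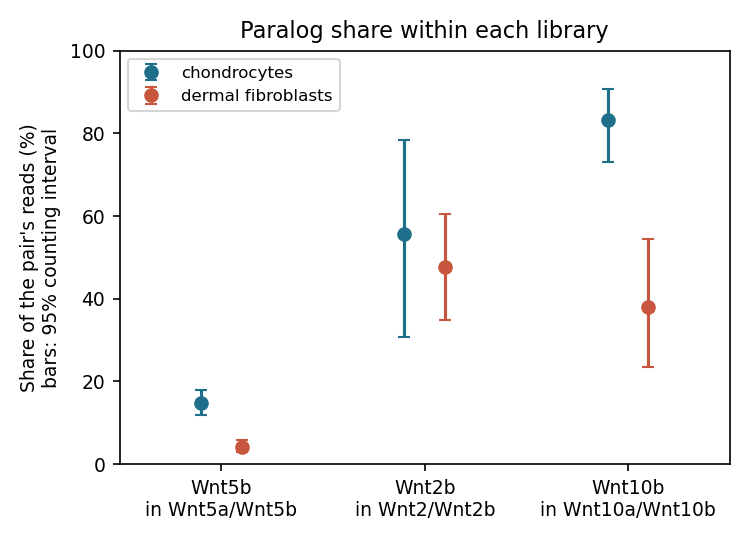
Share of a pair's reads taken by the second relative (*Wnt5b*, *Wnt2b* and *Wnt10b*), in percent, in the chondrocyte library (blue) and the dermal fibroblast library (red), with bars for the 95% counting interval. The intervals of the libraries do not overlap for *Wnt5b* and *Wnt10b* and overlap for *Wnt2b*.

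Levels of different genes were compared per length, as RPKM, the CPM divided by the exon length in kilobases, with exon lengths of the GENCODE vM1 annotation. In chondrocytes *Wnt5a* was at 3.22 RPKM and *Wnt11* at 2.83, and their intervals overlapped (2.93 to 3.52 and 2.44 to 3.26). *Wnt5b* (1.66), *Wnt10b* (1.48), *Wnt9a* (1.20) and *Wnt4* (0.901) followed, and each overlapped the next in this order. The intervals of *Wnt11* and *Wnt5b* did not overlap, nor did that of *Wnt4* with the next gene, *Wnt16* (0.290). *Wnt10a* (0.280), *Wnt2* (0.189), *Wnt2b* (0.149) and *Wnt6* (0.0515) were the lowest members and could not be ordered by their intervals.

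In dermal fibroblasts the order was different at the top. *Wnt4* was at 6.37 RPKM (interval 5.80 to 6.97) and *Wnt5a* at 6.03 (interval 5.63 to 6.46), which overlapped, and *Wnt9a* followed at 3.88 (interval 3.39 to 4.42), overlapping *Wnt16* at 3.23. The other 7 members lay between 0.390 (*Wnt10b*) and 0.833 (*Wnt2*), and each overlapped its neighbor in the order. *Wnt11*, in the second place in chondrocytes, stood at 0.502 RPKM (interval 0.343 to 0.708) in dermal fibroblasts. Among genes with a read and a length, *Wnt5a* was at the 46.8 percentile of level in chondrocytes and *Wnt4* at the 57.6 percentile in dermal fibroblasts. With the longest transcript in place of all exons, *Wnt5a* held 24.7% and *Wnt4* 23.3% of the summed Wnt level of dermal fibroblasts, against 25.2% and 26.6%, so that the order of these genes was reversed. *Wnt16* then held 20.8% and *Wnt9a* 14.3%, against 13.5% and 16.2%, so that *Wnt16* stood above *Wnt9a*.

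**Figure D4:**
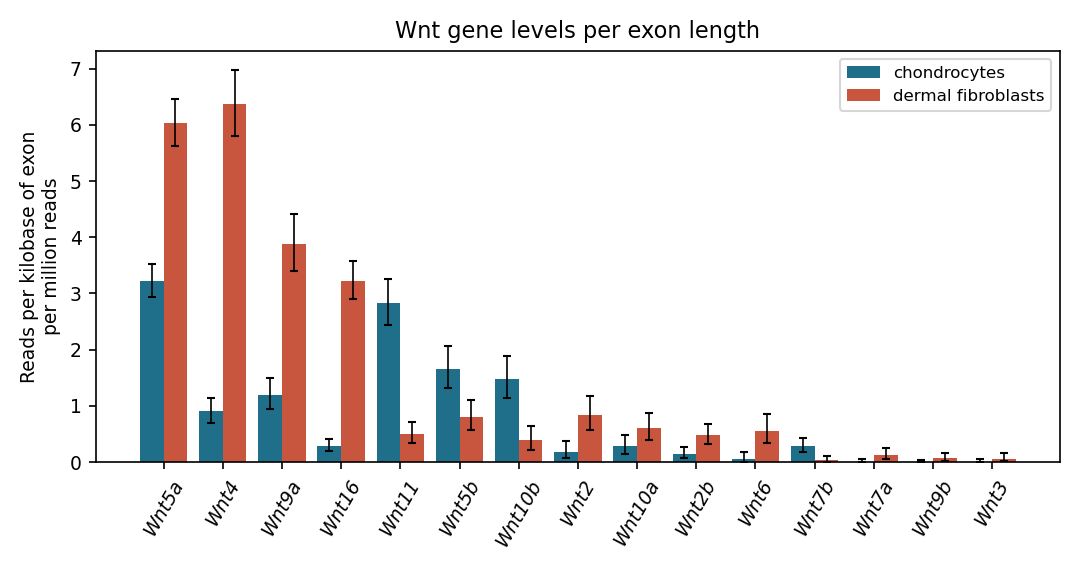
RPKM for the 15 Wnt genes with a read in at least 1 library, in chondrocytes (blue bars) and dermal fibroblasts (red bars), with error bars for the 95% counting interval. *Wnt5a* and *Wnt11* stand highest in chondrocytes, and *Wnt4*, *Wnt5a*, *Wnt9a* and *Wnt16* in dermal fibroblasts.

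Of the other 9 Wnt genes, *Wnt16* and *Wnt7b* had at least 10 counts in 1 library. *Wnt16*, a regulator of cortical bone, went from 34 counts in the chondrocyte library to 354 in the dermal one, a 10.3-fold difference (interval 7.22 to 15.1), beyond the fold of *Wnt4*. *Wnt7b*, which promotes bone formation, had 24 counts against 3, a ratio of 8.10 toward chondrocytes with an interval from 2.46 to 42.0. Of the remaining 7 genes, 4 had 0 reads in each library and 3 had reads in dermal fibroblasts only, named here after their values were seen. *Wnt7a* had 7 of them, *Wnt9b* had 6 and *Wnt3* had 3. Against the floor of 3 counts, *Wnt7a* was 2.30-fold and *Wnt9b* 1.98-fold higher in dermal fibroblasts. The lower bounds of their counting intervals were 1.42 and 1.16, both below 2-fold. A count of 0 in chondrocytes allows up to 0.160 CPM by the same floor of 3 counts, and up to 0.196 CPM by the Clopper-Pearson interval used for the other levels.

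Some members have another Wnt gene as a neighbor in the genome. *Wnt6* and *Wnt10a* are separated by 6696 bp on chromosome 1, and both had more reads in dermal fibroblasts, although the interval of *Wnt10a* included equality. *Wnt9a* lies 16097 bp from *Wnt3a*, which had 0 reads in each library beside the 75 and 227 reads of *Wnt9a*. *Wnt10b* lies 11650 bp from *Wnt1*, which also had 0 reads in each library. In the last 2 pairs, reads were found on the ligand of the list and not on the adjoining gene, whereas *Wnt6* and *Wnt10a* both had reads.

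The genes that act with the ligands were compared through 8 lists. Over 67 different genes, 9 were over 2-fold higher in chondrocytes and 12 in dermal fibroblasts. Over all genes with at least 10 counts the shares were 11.6% and 16.5%, close to those of the 67 genes. The median log2 fold of the 67 was 0.02, also close to that of all genes with at least 10 counts. The same shares are the background for the count of each list below. Among 4 genes of ligand processing, those for making and releasing the ligands were higher in dermal fibroblasts. *Porcn*, which encodes Porcupine, had 128 chondrocyte counts and 277 dermal fibroblast counts (2.14-fold, and within 2-fold with *Actb* as the scaling). Its interval, from 1.73 to 2.66, reached below 2-fold. *Wls*, which encodes Wntless, had 2051 against 5368 (2.58-fold). *Notum*, a secreted enzyme that removes the lipid and inactivates the ligands, had 105 against 35 and was 3.04-fold higher in chondrocytes.

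Of the 10 Frizzled receptors, 3 were over 2-fold higher in chondrocytes and 0 in dermal fibroblasts. *Fzd9* had 648 counts against 29 and was 22.6-fold higher, *Fzd6* had 374 against 91 (4.16-fold) and *Fzd8* had 517 against 186 (2.81-fold). The 8 co-receptors and receptors that act without β-catenin were all within 2-fold, among them *Lrp5* (0.797), *Lrp6* (1.72) and *Ror2* (1.36), given as chondrocytes over dermal fibroblasts. The summed Frizzled level was 353 CPM in chondrocytes and 356 in dermal fibroblasts. The 10 ligands, by contrast, summed to 52.8 and 97.9 CPM.

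Secreted antagonists bind the ligands or the co-receptors. Of 12 genes listed here as antagonists or as their relatives, 3 were over 2-fold higher on each side. Whether each of the 12 acts as an antagonist was not tested. *Frzb*, a cartilage antagonist, had 638 counts against 69 and was 9.36-fold higher in chondrocytes. *Sfrp5* (30 against 2) had a ratio of 15.2 (interval 3.85 to 131), with a dermal count under the floor of 3. *Sfrp4* (56 against 19) was 2.98-fold higher in chondrocytes, and its interval, from 1.75 to 5.32, reached below 2-fold. *Dkk3* (174 against 3461), *Dkk2* (30 against 292) and *Sfrp2* (1658 against 9692) were 19.6-fold, 9.61-fold and 5.77-fold higher in dermal fibroblasts. Among 9 genes of the R-spondin system, which strengthens the response to the ligands, *Rspo3* (3.70-fold) and *Lgr4* (3.13-fold) were higher in chondrocytes. *Lgr5* had 9 counts against 2831 and, with *Rspo1* (3.78-fold) and *Lgr6* (2.98-fold), was higher in dermal fibroblasts.

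Inside the cell, the 9 cytoplasmic transducers were all within 2-fold (8 of 9 with total counts as the scaling, where *Dvl2*, named after its values were seen, passed it), and *Ctnnb1*, which encodes β-catenin, had 16769 and 14654 counts, a ratio of 1.16. Of 8 nuclear mediators, *Lef1* was 2.47-fold higher in dermal fibroblasts (101 counts against 253) and the other 7 were within 2-fold. Of 14 target and feedback genes, some of which other lists also hold, 5 were over 2-fold higher in dermal fibroblasts and *Notum* in chondrocytes. These 5 were *Axin2* (69 counts against 194, 2.78-fold), *Nkd2* (6.93-fold), *Apcdd1* (2.80-fold), *Lgr5* and *Lef1*. The median log2 fold of the 14 genes was 0.02, the value that the floor of 3 counts gives to genes with few reads. *Sp5* (0 and 0 counts), *Rnf43* (1 and 2) and *Dkk1* (0 and 3) took that value, so the median does not describe the other genes of the list. *Fzd8*, *Sfrp2*, *Sfrp4*, *Sfrp5*, *Lgr6*, *Apcdd1*, *Sp5*, *Rnf43* and *Dkk1* were named after their values were seen.

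**Figure D5:**
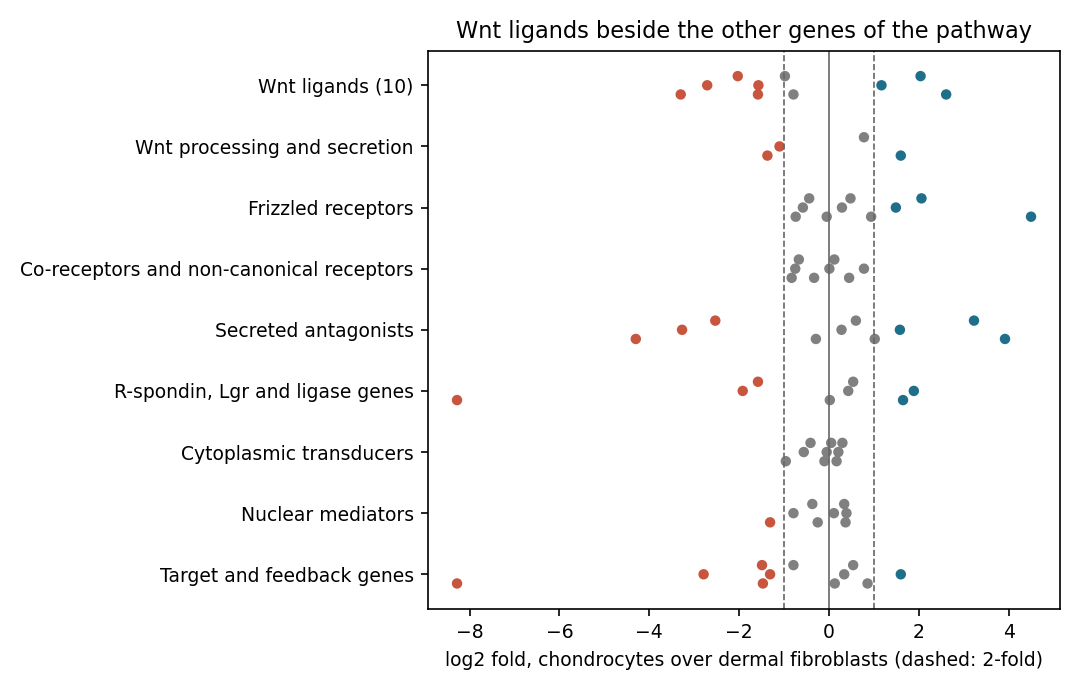
Log2 fold, chondrocytes over dermal fibroblasts, of the 10 WNT ligands (top line) and of the genes of the 8 pathway lists, with dashed lines at 2-fold, where each point is a gene with more than 3 counts in 1 library. Blue and red points are over 2-fold higher in chondrocytes and in dermal fibroblasts after the floor of 3 counts, and the cytoplasmic transducers and co-receptors have only grey points.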

How the data were processed

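RNA-Seq was performed on 1 chondrocyte and 1 dermal fibroblast library made with a stranded mRNA kit. The authors deposited raw read counts per gene symbol, not scaled, and the submitters' processing notes name CASAVA 1.8.2, TopHat2 2.0.13, Bowtie2 2.2.3, SAMtools 0.1.19 and the build mm10. The counting program, its annotation and its strand setting are not given in the sources used here. In the table, 27 symbols that had been turned into dates were kept as rows.

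From the deposited counts, Python 3.11.15 (numpy 2.4.6, pandas 2.3.3, scipy 1.17.1) gave the folds. Scaling factors were medians of ratios over genes above 0 in both libraries, 0.994 for chondrocytes and 1.01 for dermal fibroblasts. CPM and RPKM used the total counts. For folds a floor of 3 counts was applied, a fold over 2 was the threshold, and 95% Clopper-Pearson intervals were computed. No p-value was computed. The functions were tested on simulated counts. Alternatives were total counts, edgeR TMM factors (edgeR 4.0.16, R 4.3.3), the upper quartile, totals that leave out the top 10 genes by count in each library, *Actb*, a pseudocount of 1, floors of 1 and 10 counts, a minimum of 10 counts, a fold over 4, the interval bound over 2, and the longest transcript as gene length. A GENCODE vM1 length was found for 92.2% of the genes with at least 10 counts, and only lengths were taken from that annotation, which is on another build. Positions and sequences are those of RefSeq on GRCm38.p6, the build mm10.

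The members and gene lists were chosen with earlier results of these data known. Named were all members, the other Wnt genes with at least 10 counts in 1 library, up to 2 genes of each pathway list in each direction with the largest folds over 2 and at least 100 counts, *Porcn*, *Wls*, *Notum*, *Ctnnb1*, *Axin2*, *Lef1*, *Ror2*, *Lrp5* and *Lrp6* for their role, and the 3 most abundant markers of the chondrocyte, fibroblast, keratinocyte and muscle lists. For the other marker lists only sums are given.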

Additional observations from a re-analysis of the deposited data

How the results depend on the processing

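No paired analysis was possible because there was only 1 library for each cell type. Of the 10 members, 3 were over 2-fold higher in chondrocytes under each scaling, floor and pseudocount tried, and 2 with a fold over 4 or with the interval bound over 2. In dermal fibroblasts 5 members were over 2-fold higher, 6 with total counts (*Wnt10a* at 2.14-fold), 4 with a floor of 10 counts (*Wnt6* at 1.98-fold), and 3 with a fold over 4 and 3 with the interval bound over 2, which remove genes by construction. Of 80 member folds under 8 alternatives, 79 stayed within the counting interval of the main value, 1 did not (*Wnt6* with the floor of 10 counts) and 0 changed direction. Over all genes, 1858 were over 2-fold higher in chondrocytes and 2503 in dermal fibroblasts. With a fold over 4 these were 704 and 951, with the interval bound 1000 and 1578, and with a pseudocount of 1 the first was 2841. Pathway genes numbered 9 and 12, and 4 and 5 with a fold over 4. Relative to the medians of ratios, total counts moved each log2 fold by -0.12 and *Actb* by 0.14. *Porcn* was within 2-fold with *Actb*, *Dvl2* passed 2-fold with total counts, and the intervals of *Porcn*, *Sfrp4* and *Lef1* reached below 2-fold. With the longest transcript, 24 of 27 per-length shares stayed within counting error, and *Wnt16* in dermal fibroblasts went from 13.5% to 20.8%. Depth limits *Wnt6*, *Wnt2*, *Wnt2b* and *Wnt10a*, each with under 40 counts in each library. It also limits the folds of *Wnt11*, *Wnt5b* and *Wnt10b*, which had 32, 37 and 16 counts in dermal fibroblasts.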
